A study of Mus musculus with 4 samples.

Results

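The simple epithelial keratins described here are Krt7, Krt8, Krt18 and Krt19, 4 of the 31053 genes in each of the 4 UMI matrices, taken by name and described by lobe, reporter, castration, cell class and explant day. All 4 had UMIs in every library. Keratins are the intermediate filament proteins of epithelial cells, and a filament is built from a type I chain paired with a type II chain, so a cell that makes filaments has to make both. Krt7 and Krt8 encode type II chains, and Krt18 and Krt19 encode type I chains. Krt8 and Krt18 form the filaments of most single-layered epithelia and are used in prostate as markers of the luminal layer, the secretory cells that face the duct. Krt19 is common in ducts and Krt7 in ducts and in the urothelium, whereas Krt5 and Krt14 mark the basal cells beneath the luminal layer.

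Adult cells came from ICR (CD-1) males carrying P2-Runx1:RFP, an allele in which RFP is read from the proximal P2 promoter of Runx1. The reporter stands in for transcription from that promoter alone, and intact and castrated mice both carried it. Prostate lobes of adults over 8 weeks of age were dissected, the ventral (VP), anterior (AP) and dorsolateral (DLP), and their EPCAM+ cells were sorted as RFP+ or RFP-, tagged with lipid barcodes (MULTI-seq) and sequenced in 3 independent runs of pooled mice. Run 3 held intact mice only, and runs 1 and 2 also held mice castrated for more than 4 weeks, with the castrated lobes of run 1 pooled. Intact DLP RFP+ cells came from run 3 alone, since the study's methods report that their barcode failed in runs 1 and 2. The remaining library held EPCAM+ cells of urogenital sinus (UGS) explants, the embryonic tissue that gives rise to the prostate, taken at E15.5 and cultured with 10 µM dihydrotestosterone for 0, 1, 3 or 6 days, 1 pool a day. Explant cells were not sorted by RFP, and the study's methods name no reporter genotype or sex for these embryos.

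After filters, 4691 adult cells carried a single barcode and 4213 of them had an Epcam UMI. A cell was called basal at 5 or more Krt5 plus Krt14 UMIs per 10,000, which gave 1983 basal cells and 2230 other Epcam-positive cells, and 69 cells (1.64%) lay between 4 and 6. In the explant library 5034 of 5198 assigned cells had an Epcam UMI, 3590 were basal by the same threshold, and 325 (6.46%) lay near it. Median UMIs per assigned cell were 9750 to 13055 in the adult runs and 14784.5 in the explants, and any pair of libraries shared 6 or fewer cell barcodes. Basal markers other than Krt5 and Krt14 (Trp63, Krt15, Col17a1, Itga6, Itgb4, Dst and Lgals7) summed to 6900 to 10500 CPM (UMI counts divided by the total of the summed cells, on the usual CPM scale) in intact basal cells and to 66.1 to 2880 in the other cells. Runx1 itself, counted in AP other cells, was 75.8, 137 and 108 scaled CPM in RFP+ cells of runs 1, 2 and 3 and 15, 14.7 and 14.5 in RFP- cells.

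All 4 keratins lie in the 2 keratin clusters of the mouse genome (GRCm38, GENCODE vM21). Krt7 spans chromosome 15, 101411043 to 101430313, on the plus strand, with 9 exons in Krt7-201. Krt8 spans 101996698 to 102004482 on the minus strand of the same chromosome, with 9 exons. Krt18 spans 102028180 to 102032027 on the plus strand, with 7 exons, and is the only type I keratin gene placed in the type II cluster. It is 23697 bases from Krt8 and starts on the opposite strand, so that these partner chains are also neighbours. Krt19 lies with the other type I genes on chromosome 11, 100140810 to 100148665, on the minus strand, with 6 exons. The 250 bases before the start sites of Krt7, Krt8 and Krt18 (RefSeq, GRCm38.p6) are shown because the neighbours Krt8 and Krt18 were called in different comparisons below, while Krt8 and Krt7 were called in the same ones. The RefSeq start sites lie inside the GENCODE spans given above, so the stretches of Krt8 and Krt18 overlap those spans in part and that of Krt7 lies within its span. Krt19 had no entry. Capitals mark GC boxes (GGGCGG, or CCGCCC on the opposite strand).
Krt7, chr15:101412153-101412402, plus strand: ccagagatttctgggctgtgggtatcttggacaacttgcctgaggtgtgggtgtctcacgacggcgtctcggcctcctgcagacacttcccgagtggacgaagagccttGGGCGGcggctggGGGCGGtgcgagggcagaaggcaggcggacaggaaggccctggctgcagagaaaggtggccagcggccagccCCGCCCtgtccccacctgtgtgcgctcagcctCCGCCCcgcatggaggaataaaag
Krt8, chr15:102004343-102004592, minus strand: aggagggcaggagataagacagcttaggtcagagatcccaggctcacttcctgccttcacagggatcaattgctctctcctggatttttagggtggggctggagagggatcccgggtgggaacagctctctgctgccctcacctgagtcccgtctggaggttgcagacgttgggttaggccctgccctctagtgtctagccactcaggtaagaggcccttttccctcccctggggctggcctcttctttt
Krt18, chr15:102027966-102028215, plus strand: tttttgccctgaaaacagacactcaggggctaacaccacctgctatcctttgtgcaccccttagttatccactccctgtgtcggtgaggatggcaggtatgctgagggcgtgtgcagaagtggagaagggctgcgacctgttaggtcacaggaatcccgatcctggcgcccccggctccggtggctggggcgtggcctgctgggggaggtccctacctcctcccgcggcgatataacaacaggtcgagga

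The Krt7 stretch held 4 GC boxes, which began 141, 128, 56 and 24 bases before the start, and 66% of its bases were G or C. The stretches of Krt8 (58%) and Krt18 (60.4%) held none. Over 32851 mouse promoter stretches of the same length, 32.7% held a GC box and the median GC content was 52.4%. On either strand, none of the 3 stretches held the RUNX core (TGTGGT or TGCGGT, in 18.6% of all stretches), the AP-1 motif TGAGTCA (4.46%), TATAAA (12.4%) or the androgen receptor half-site AGAACA (16.1%).

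The 4 keratins differed in where they were highest. In the intact prostate, Krt8, Krt19 and Krt7 were highest in AP RFP+ other cells and, after scaling for composition, Krt18 in VP RFP+ other cells. UMIs were summed per run, sorted population and class and scaled for composition (TMM, edgeR), and levels of intact cells are given as these scaled CPM. In AP RFP+ other cells Krt19 stood at 3150, 1760 and 1660 in runs 1, 2 and 3, Krt8 at 1880, 987 and 1020, and Krt7 at 426, 251 and 275. Krt18 in the same cells stood at 798, 879 and 989, below each of its values in AP RFP-, DLP RFP- and VP other cells. In VP RFP+ other cells Krt18 reached 1740, 1710 and 2140. This rank of Krt18 depended on the scaling. In CPM without it (plain CPM), Krt18 was 945 to 1090 in VP RFP+ other cells. It was 1190 to 1790 in AP RFP- and 1200 to 1680 in DLP RFP- other cells. In plain CPM AP RFP+ other cells (914 to 1120) overlapped VP RFP+ and VP RFP- other cells (835 to 938 in the latter).

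**Figure D1:**
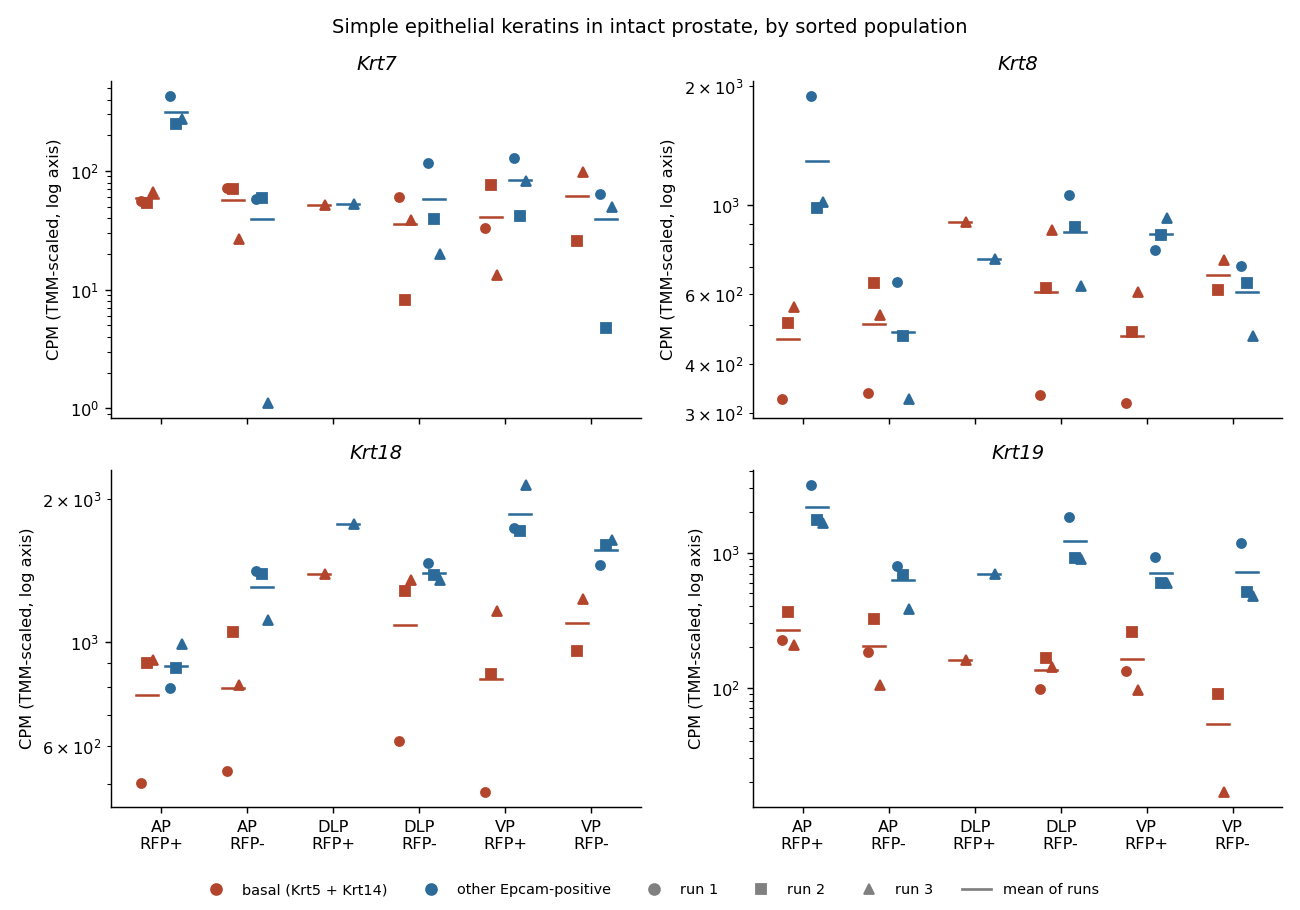
TMM-scaled CPM (log axis) of the 4 keratins in each intact sorted population, with 1 point per run and class (basal in red, other Epcam-positive in blue) and a line at the mean of the runs. The 3 AP RFP+ other points lie above all others for Krt7 (251 to 426). For Krt18 they lie at 798 to 989, below the other blue points in this scaling.

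Ordered by their means, the Krt7 levels fell from 317 ± 94.9 (SD, n = 3 runs) in AP RFP+ other cells to 84.1 ± 43.1 in VP RFP+ other cells and 35.7 ± 26.1 in DLP RFP- basal cells, and below the first population no neighbours in the order differed beyond their SDs. Krt8 ran from 1300 ± 506 in AP RFP+ other cells to a mean of 462 in AP RFP+ basal cells (325 to 556), and DLP RFP- other (856 ± 217) and VP RFP+ other cells (849 ± 79.1), next below among populations with replicates, did not differ from the top or from each other beyond their SDs. Krt18 ran from 1860 ± 240 in VP RFP+ other cells through VP RFP- (1560 ± 100), DLP RFP- (1400 ± 62.4) and AP RFP- other cells (1300 ± 168) to 772 ± 235 in AP RFP+ basal cells. AP RFP+ other cells (889 ± 95.9) stood among the basal populations in this order, in which neighbours again lay within their SDs. Krt19 split by class: the 6 other populations ran from 2190 ± 833 in AP RFP+ to 623 ± 214 in AP RFP- cells, and the 6 basal ones from 265 ± 87.1 down to 53.5 ± 51.8 in VP RFP- basal cells (n = 2 runs), with a gap between the classes wider than the SDs beside it. The single DLP RFP+ pool of run 3 gave Krt7, Krt8, Krt18 and Krt19 at 52.9, 734, 1770 and 695 in other cells and at 52.2, 906, 1390 and 159 in basal cells.

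Basal cells were compared with the other cells of the same sorted population to ask how far simple keratins are restricted to the non-basal compartment. In the AP RFP+ population 3 of the 4 keratins were lower in basal cells and Krt18 was not called. For Krt19 the basal values were 224, 365 and 206 against 3150, 1760 and 1660. The difference was -3.05 ± 0.52 on the log2 scale (SE, 3 runs each), 8.26-fold (edgeR quasi-likelihood test, adjusted p = 0.000124). Krt7 stood at 55.9, 53.7 and 66.8 in basal cells against 426, 251 and 275, a difference of -2.43 ± 0.75 (adjusted p = 0.0211). Krt8 stood at 325, 506 and 556 in basal cells against 1880, 987 and 1020, a difference of -1.49 ± 0.34 (edgeR, adjusted p = 0.00259). Krt18 overlapped, at 501, 900 and 914 against 798, 879 and 989, and its difference was -0.20 ± 0.30 (95% interval -0.82 to 0.42, adjusted p = 0.702). Of the 12237 genes tested, 20.6% were called in this comparison. Without run 2, which had the most blood-cell UMIs, Krt19 alone was still called (Krt8, adjusted p = 0.0509, and Krt7, 0.0758), and Krt7 was not called without run 1 (0.1) or run 3 (0.0718) or with no Epcam UMI required (0.0518). Without the cells holding a UMI of Ptprc, Pecam1, Col1a1 or Pax2, the same 3 were called.

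The VP RFP+ population gave another order. Krt19 again stood lower in basal cells, at 133, 258 and 95.4 against 922, 592 and 591, a difference of -2.09 ± 0.51 (adjusted p = 0.00261). Here Krt18 was lower too, at 481, 854 and 1160 in basal cells against 1740, 1710 and 2140, a difference of -1.16 ± 0.31 (adjusted p = 0.00455). Krt8 stood at 319, 481 and 604 against 773, 844 and 931. Its difference of -0.86 ± 0.34 missed the threshold (edgeR, adjusted p = 0.0561) but passed with run as a block (-0.86, adjusted p = 0.0372). Krt7 overlapped, at 33.4, 77.0 and 13.3 against 128, 41.9 and 82.3, a difference of -0.87 ± 0.80 (adjusted p = 0.446). So 2 of 4 were called, where 33.3% of all genes were. Without run 2 Krt18 was not called (adjusted p = 0.0815), and with cells limited to fewer than 7500 UMIs none of the 4 was, with Krt19 at -1.37 (0.541) and Krt18 at 0.33 (0.867). VP other cells carry a few secretory transcripts at very high levels and took scaling factors of 0.51 to 0.646, and with plain CPM the median of all genes stood at 1.15 (log2) instead of -0.06 and none of the 4 was called, with Krt7 (0.35), Krt8 (0.36) and Krt18 (0.05) slightly higher in basal cells.

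Other genes of the filament and its anchors were taken from fixed lists. Among 14 other keratins tested of 47 in the matrix (Krt5 and Krt14 set aside, since they define the classes), 4 were higher and 3 lower in AP RFP+ basal cells, led by Krt17 (6.90 on the log2 scale), Krt16 (3.93) and Krt78 (-3.91), and 4 were higher and 1 lower in VP RFP+ basal cells, led by Krt17 (6.01), Krt15 (5.39) and Krt16 (4.62). Krt17 and Krt16 are type I keratins of stratified and stressed epithelia. Of 15 desmosome and plakin genes tested, which tie keratin filaments to cell junctions, 7 were higher and 3 lower in AP RFP+ basal cells, led by Dsc3 (4.91), Pkp1 (3.21) and Dst (2.93), and 8 were higher and 2 lower in VP RFP+ basal cells, led by Pkp1 (5.72), Dsc3 (5.32) and Dst (3.67). The list medians were -0.36 and 0.28 in the AP and 1.26 and 1.43 in the VP, against medians of all genes of -0.07 and -0.06. Of all genes, 20.6% were called in the AP and 33.3% in the VP comparison, near the share of the other keratins in the VP.

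RFP+ and RFP- other cells of the AP were compared to ask whether the keratins follow the Runx1 reporter. Krt7, Krt8 and Krt19 were higher in RFP+ cells and Krt18 was not. Krt7 stood at 426, 251 and 275 in RFP+ cells against 58.2, 58.8 and 1.12 in RFP- cells, a difference of 2.91 ± 0.77 on the log2 scale (adjusted p = 0.00934), of which the last RFP- value rests on 1 UMI in 60 cells. Krt8 stood at 1880, 987 and 1020 against 643, 469 and 326, a difference of 1.43 ± 0.34 (adjusted p = 0.00465). Krt19 stood at 3150, 1760 and 1660 against 796, 689 and 384, a difference of 1.81 ± 0.50 (adjusted p = 0.0125). These run values describe few runs and are not a further test. Krt18 stood lower in RFP+ cells in each run, at 798, 879 and 989 against 1410, 1390 and 1110, and its difference of -0.55 ± 0.30 did not pass (95% interval -1.18 to 0.07, adjusted p = 0.226). In this comparison 18% of all genes were called.

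These calls depended on having all 3 runs. Without run 3 none of the 3 was called (adjusted p = 0.0856 for Krt7, 0.0627 for Krt8 and 0.06 for Krt19), without run 1 Krt19 was not (0.0704) and without run 2 Krt8 was not (0.11), nor was Krt19 with cells limited to fewer than 7500 UMIs (2.19, 0.051), with differences of 1.25 to 4.00 in the same direction throughout. Cells of other kinds differed between the groups: blood-cell markers (Ptprc, Cd74, Cd3d, Itgam, Lyz2 and Cd52) summed to 408, 5150 and 77.3 CPM in RFP+ cells against 105, 142 and 441 in RFP- cells, and 26.5% of the RFP+ other cells of run 2 held a Ptprc UMI. Without the cells holding a UMI of Ptprc, Pecam1, Col1a1 or Pax2 the differences were 2.92 for Krt7, 1.5 for Krt8 and 1.88 for Krt19, all called, and -0.51 for Krt18. Urothelial markers (Upk1a, Upk1b, Upk2, Upk3a, Krt20 and Foxq1) summed to 544 to 692 in RFP+ cells against 80.2 to 246 in RFP- cells, with Krt20 at 0 in all 3 RFP+ sums, and their part in the keratin differences was not tested. The mesonephric markers Pax2, Pax8 and Lhx1 were at 0 in AP RFP+ other cells. Hoxb7, another of these markers, was found in 25.8%, 10.2% and 10.6% of them and in 22.5%, 12.6% and 11.7% of RFP- other cells. Svs2 was found in 0.957%, 0% and 0% of AP RFP+ other cells. Psca was found in 86.6%, 57.1% and 77.5% of RFP+ other cells and in 15%, 7.28% and 3.33% of RFP- other cells.

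Few of the other keratins were called by reporter. Of 16 tested, Krt4 (3.11), a keratin of stratified mucosa, and Krt15 (1.69) were higher in AP RFP+ other cells and none was lower, and of 15 desmosome and plakin genes 4 were higher and none lower, led by the cytolinkers Eppk1 (2.56), Ppl (2.17) and Plec (1.42). The share of all genes called was 18%. The list medians were 1.22 and 0.71, against 0.11 for all genes.

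**Figure D2:**
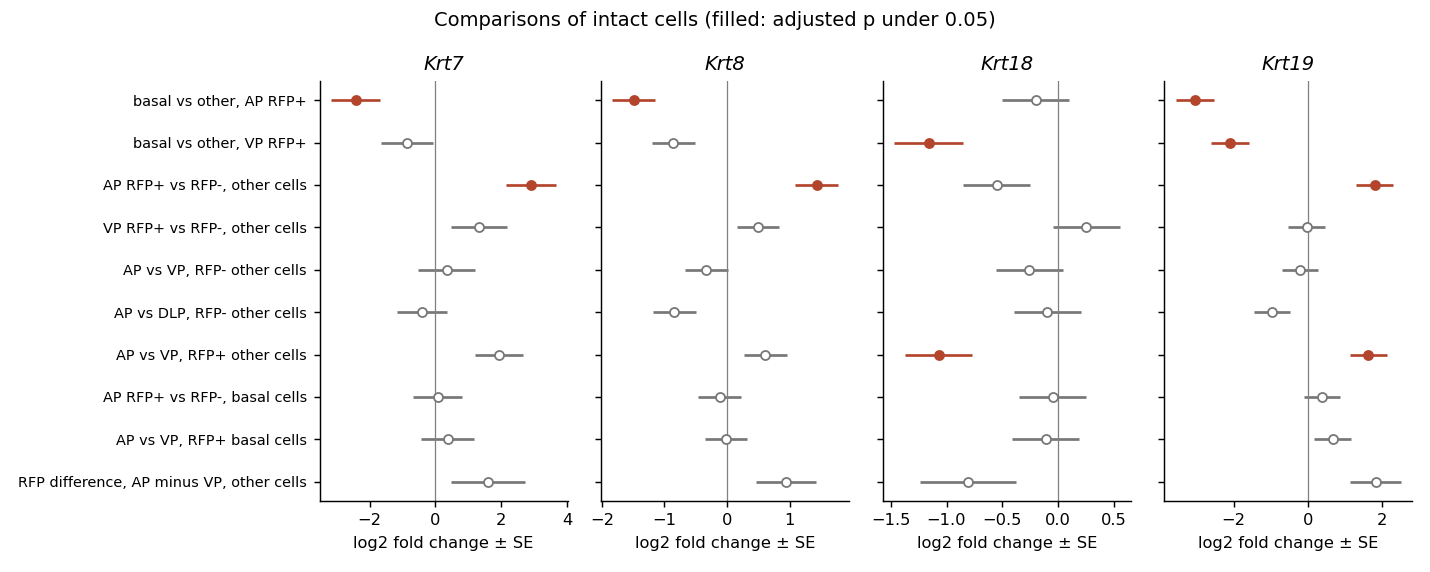
Log2 fold change ± SE of each keratin in the 10 comparisons of intact cells (edgeR quasi-likelihood fit over all 12237 genes), filled where the adjusted p was under 0.05. Krt7, Krt8 and Krt19 move right in AP RFP+ against RFP- other cells (2.91, 1.43 and 1.81) while Krt18 lies at -0.55.

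In VP other cells no keratin was called by reporter. Krt7 stood at 128, 41.9 and 82.3 in RFP+ and 63.6, 4.76 and 49.4 in RFP- cells, Krt8 at 773, 844 and 931 against 705, 637 and 469, Krt18 at 1740, 1710 and 2140 against 1450, 1600 and 1640, and Krt19 at 922, 592 and 591 against 1170, 510 and 481. RFP+ cells were the higher in each run for Krt7, Krt8 and Krt18, and Krt19 changed side between runs. The differences were 1.32 ± 0.85, 0.49 ± 0.34, 0.25 ± 0.30 and -0.03 ± 0.49 with an adjusted p of 1 for each, and 0.212% of all genes were called. Runx1 itself was 29.5, 28.4 and 42.8 in RFP+ against 16.6, 10.7 and 7.72 in RFP- cells. With 3 runs the 95% intervals ran from -0.42 to 3.06 for Krt7 and from -1.04 to 0.98 for Krt19, so that differences of the size seen in the AP lay inside the first and outside the second. The RFP difference of the AP minus that of the VP was tested directly: 1.84 ± 0.69 for Krt19 (adjusted p = 0.194), 1.59 ± 1.13 for Krt7 (0.596), 0.94 ± 0.48 for Krt8 (0.385) and -0.81 ± 0.43 for Krt18 (0.413). None passed, where 2% of all genes did, and with run as a block Krt19 did (1.82, adjusted p = 0.0276).

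Lobes were compared within each reporter class. Among RFP+ other cells, Krt19 was higher in the AP than in the VP, at 3150, 1760 and 1660 against 922, 592 and 591 (1.64 ± 0.50, adjusted p = 0.0186), and Krt18 was lower, at 798, 879 and 989 against 1740, 1710 and 2140 (-1.07 ± 0.30, adjusted p = 0.0128). The run values are again a description and not a further test. Krt7 (1.93 ± 0.73, adjusted p = 0.0601) and Krt8 (0.61 ± 0.34, adjusted p = 0.212) did not pass, and Krt7 did with run as a block (1.97, adjusted p = 0.00646). So 2 of 4 were called against 22.3% of all genes. Krt19 missed the threshold when any run was left out (adjusted p from 0.0522 to 0.07), as did Krt18 without run 2 (0.154) or run 3 (0.101). With cells limited to fewer than 7500 UMIs neither was called, with Krt19 at 1.88 (0.374) and Krt18 at -0.12 (0.983). With plain CPM the median of all genes stood at 1.21 (log2) instead of 0.10, and Krt7 (3.07), Krt8 (1.77) and Krt19 (2.78) were called higher in the AP and Krt18 was level (0.04). Scaling moves all genes of a comparison by about the same amount, so the shared order Krt7, Krt19, Krt8 and Krt18 carries no added support. Of the other keratins 7 of 16, and of the desmosome and plakin genes 6 of 15, were higher in the AP and none lower, led by Krt13 (4.30), Krt4 (3.99) and Krt78 (3.43), keratins of stratified mucosa, and by Dsc2 (2.80), Pkp1 (2.56) and Ppl (1.84).

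Among RFP- other cells none of the 4 differed between AP and VP (adjusted p from 0.644 to 0.9) or between AP and DLP (0.388 to 1), where 10.9% and 1.14% of all genes did. The AP stood at 643, 469 and 326 for Krt8 and the DLP at 1060, 881 and 628, so that the DLP was higher in each run (-0.84 ± 0.34 for AP minus DLP, 95% interval -1.54 to -0.13, adjusted p = 0.388). Krt19 was also higher in the DLP in each run, at 1850, 911 and 892 against 796, 689 and 384 (-0.96 ± 0.49, adjusted p = 0.592). DLP RFP- other cells held mesonephric markers (Pax2, Pax8, Hoxb7, Lhx1 and Svs2) at 7880, 1810 and 820 CPM against 7.27 to 236 in AP RFP- cells, with Pax8 and Lhx1 at 0. Svs2 alone stood at 7840, 1790 and 810 CPM there, found in 18.2%, 9.33% and 10.6% of the DLP RFP- other cells. Pax2 stood at 4.24 to 9.88 CPM in them. Hoxb7 stood at 5.22 to 28.2 CPM, against 7.27 to 13.6 in AP RFP- other cells. The part of these markers in the keratin levels was not tested. Of the other keratins Krt23 (2.48) was higher and Krt10 (-1.40) lower in the AP than in the VP, as were Pkp4 (1.29) and Perp (-1.06) among desmosome genes, and none of either list was called between AP and DLP.

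No keratin difference passed the test among basal cells. AP RFP+ and RFP- basal cells differed by 0.07 ± 0.75 for Krt7, -0.12 ± 0.34 for Krt8, -0.05 ± 0.30 for Krt18 and 0.39 ± 0.49 for Krt19. None of these was called (adjusted p = 1 each), nor was any other gene (0% of 12237; 206 genes had an unadjusted p under 0.05, DESeq2 called 0 and the fit with run as a block 5). Krt8 stood at 325, 506 and 556 in RFP+ basal cells and at 337, 637 and 531 in RFP- basal cells, and Krt18 at 501, 900 and 914 and at 531, 1050 and 809. Their 95% intervals of -0.82 to 0.58 and -0.67 to 0.57 bound these differences within 2-fold, while that of Krt7 (-1.48 to 1.62) is wider. AP and VP RFP+ basal cells differed by 0.37 ± 0.80, -0.02 ± 0.34, -0.11 ± 0.30 and 0.68 ± 0.50 in the order Krt7, Krt8, Krt18 and Krt19 (adjusted p from 0.835 to 1), where 0.0654% of all genes were called. No other keratin or desmosome gene was called in either comparison.

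The balance of partner chains does not depend on scaling, since both are counted in the same cells, and 3′ tags count molecules without regard to transcript length. Krt8 and Krt18 UMIs stood at 2.36, 1.12 and 1.03 Krt8 per Krt18 in AP RFP+ other cells of runs 1, 2 and 3, and at 0.286 to 0.724 in the other 28 intact sums. The 15 basal sums lay in a narrow band of 0.485 to 0.663. Krt19 per Krt18 was 3.94, 2.00 and 1.68 in AP RFP+ other cells and 0.0138 to 1.26 elsewhere. Counted over both chains of each type, however, type II UMIs (Krt7 plus Krt8) per type I UMI (Krt18 plus Krt19) were 0.469 to 0.585 in AP RFP+ other cells, within the 0.218 to 0.664 of the other sums. These ratios are descriptions, and no test of them was made.

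**Figure D3:**
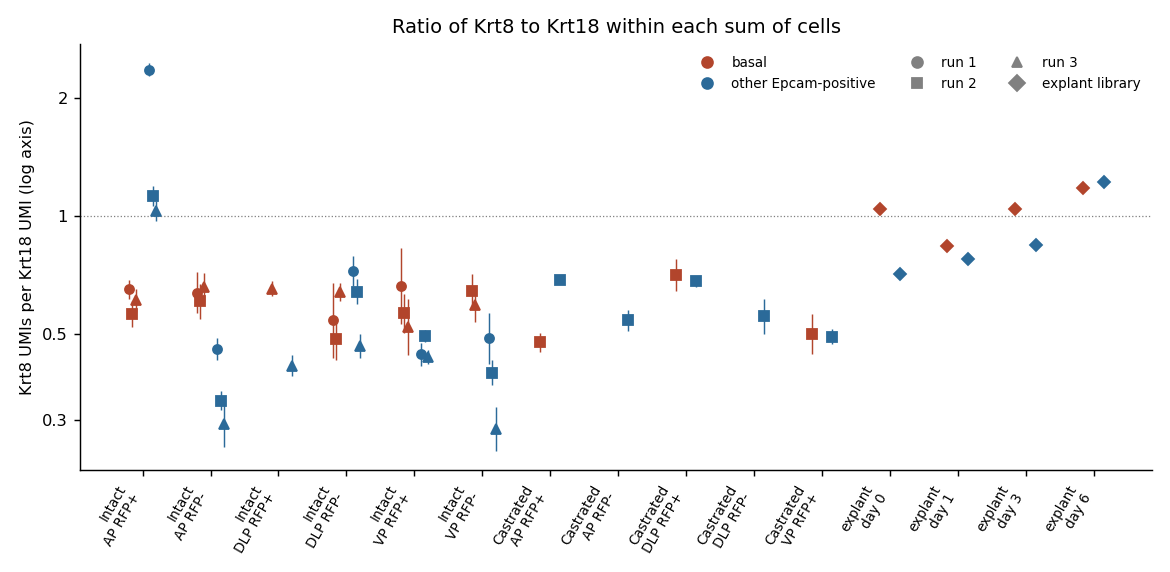
Krt8 UMIs per Krt18 UMI (log axis) in each sum of cells, with 95% counting intervals for the adult sums; red is basal, blue other Epcam-positive cells, and the dotted line marks equal counts. AP RFP+ other cells lie at 1.03 to 2.36, all other intact sums at 0.286 to 0.724, castrated sums at 0.475 to 0.707 and explant sums at 0.711 to 1.22.

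A sum of cells can move through the number of cells of a kind or through the level in each, so single cells were examined. In AP RFP+ other cells 85.6% (95% exact binomial interval 80.1 to 90.1, for counting error only), 55.1% and 70.6% of cells held a Krt7 UMI in runs 1, 2 and 3, against 13.8%, 8.61% and 1.67% of AP RFP- other cells. Thinned to 2000 UMIs a cell the shares were 57.7%, 34.1% and 40.6% against 6.45%, 4.13% and 0.11%. Blood cells without an Epcam UMI should lack keratins. They held a Krt7 UMI in 0.833% (run 1) and 2.11% (run 2) of cells, at median depths of 6130.5 and 5933 UMIs. When thinned, these shares were 0.21% and 0.568%. The AP RFP- share of run 3 lay between the unthinned shares and under the thinned ones. Run 3 itself held 2 such blood cells, too few for a background of its own. Without the cells with a UMI of Ptprc, Pecam1, Col1a1 or Pax2 the AP RFP+ share of run 2 was 73%. Krt8, Krt18 and Krt19 were found in 6.67%, 5.83% and 8.33% of those blood cells in run 1 and in 10.3%, 17.8% and 13% in run 2, and in 74.8% or more of AP RFP+ other cells in each run.

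AP RFP+ other cells held more than one keratin pattern. Cells with a Krt7 UMI had 2860, 1500 and 1420 CPM of Krt8 and a Krt8 to Krt18 ratio of 2.88, 1.44 and 1.29 in runs 1, 2 and 3. Cells without a Krt7 UMI had 688, 299 and 521 CPM of Krt8 and a ratio of 0.421, 0.414 and 0.444, inside the range of the other intact populations. In run 2, 37 of the 66 cells without a Krt7 UMI held a UMI of Ptprc, the pan-leukocyte gene, as did 4 of 30 in run 1 and 0 of 47 in run 3. Leaving out the cells with a UMI of Ptprc, Pecam1, Col1a1 or Pax2, the ratios were 2.91, 1.46 and 1.28 with and 0.418, 0.364 and 0.451 without a Krt7 UMI. The depths of the full sets were near each other (medians of 12835 and 11892.5 UMIs in run 1, 9618 and 8059 in run 2, 10522 and 8374 in run 3). From cell to cell, Krt8 tracked Krt19 (Pearson r of log2 of UMIs per 10,000 plus 1, of 0.844, 0.881 and 0.675 over 209, 147 and 160 cells) more closely than it tracked Krt18 (0.143, 0.689 and 0.236). Without the cells just left out these r were 0.792, 0.731 and 0.671 for Krt19 and -0.134, 0.258 and 0.231 for Krt18, over 200, 100 and 157 cells. Cells share a library and values share each cell's total, and these r are descriptions.

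Likeness over the 31 intact sums (Pearson r of log2 of scaled CPM plus 1, among 2190 genes of at least 50) set the 4 keratins apart. Among the genes nearest to Krt7 were Lgals3 (0.762) and Wfdc2 (0.749), to Krt8 Atp6ap2 (0.733) and Klf5 (0.720), to Krt18 Fam46c (0.886), Arg2 (0.862) and Hsbp1 (0.852), and to Krt19 Tspan8 (0.947), Tspan1 (0.889) and Gsta4 (0.867). Between members r was 0.511 for Krt8 and Krt19, 0.501 for Krt8 and Krt18, 0.498 for Krt7 and Krt8, 0.361 for Krt7 and Krt19, 0.317 for Krt18 and Krt19 and -0.127 for Krt7 and Krt18. The sums share runs and libraries, so these r carry no test.

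Castration removes testicular androgen, on which the secretory cells of the prostate depend. Castrated and intact cells of the same lobe met in run 2 alone, 1 pool of mice each (the castrated cells of run 1 were few and of pooled lobes), so there is no replicate check and no test, and values are plain CPM with counting intervals. The study reports that castration raised the RFP+ share of epithelial cells and that high RUNX1 spread beyond the proximal region. Castrated and intact RFP+ strata can thus hold different kinds of cells. These values cannot tell that from a change in level. Krt7 was lower by 2-fold or more in 5 of 6 strata, Krt8 and Krt18 higher in 5 of 6 and Krt19 in 3 of 6, 18 of 24 values in all. Of all genes with a mean of 50 CPM or more, 6.68% (AP RFP+ basal) to 47.8% (VP RFP+ other) moved 2-fold or more. Krt7 was under that level in AP RFP+ basal, DLP RFP- other and VP RFP+ other cells. The shares of genes given for those strata do not cover it. With TMM factors Krt7 was lower in 5 of 6, Krt8 and Krt19 higher in 4 of 6 and Krt18 in 3 of 6, 16 of 24 in all. In AP RFP+ other cells (225 castrated, 147 intact) Krt7 stood at 28.1 against 261, 9.27-fold lower (95% counting interval 7.5 to 11.6). Krt18 stood at 4420 against 914, 4.84-fold higher (4.61 to 5.07), Krt8 at 3030 against 1030 (2.95-fold) and Krt19 at 4040 against 1830 (2.21-fold). Here 11.7% of genes at 50 CPM or more moved 2-fold or more. Blood-cell markers summed to 2250 in the castrated and 5150 in the intact sum, and without the cells holding a UMI of Ptprc, Pecam1, Col1a1 or Pax2 there were 16 of 20 values past 2-fold.

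**Figure D4:**
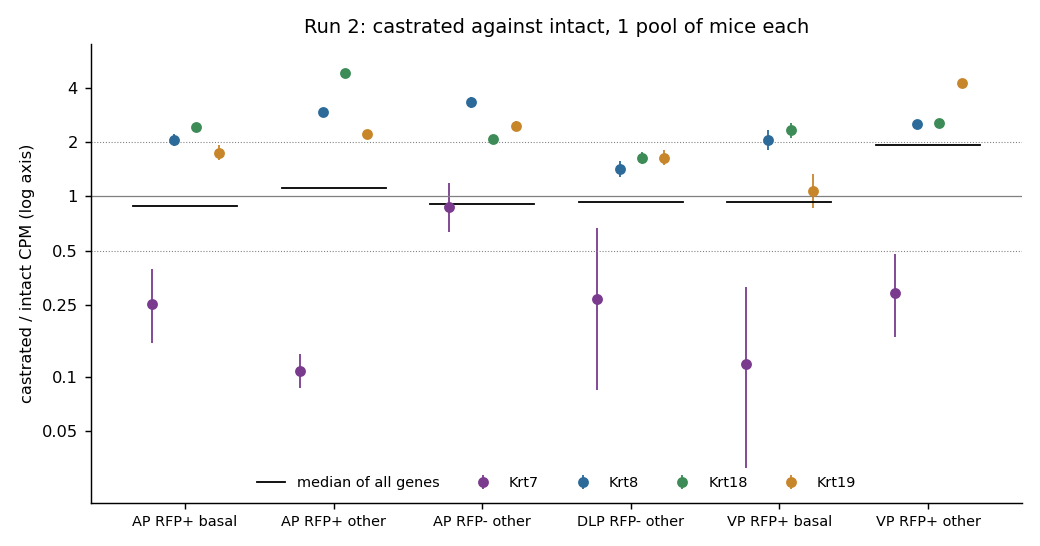
Castrated over intact CPM (log axis) in 6 strata of run 2, 1 pool of mice each, with 95% counting intervals; black lines give the median of all genes and dotted lines 2-fold either way. Krt7 lies below 0.5 in 5 strata, and Krt8, Krt18 and Krt19 lie above 1 in all 6.

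AP RFP+ basal cells (145 castrated, 124 intact) moved the same way: Krt7 stood at 16.6 against 66.0 (3.97-fold lower, 2.52 to 6.53), Krt8 at 1270 against 622 (2.05-fold higher), Krt18 at 2680 against 1110 (2.42-fold) and Krt19 at 786 against 450 (1.75-fold), where 6.68% of genes moved 2-fold. With cells limited to fewer than 7500 UMIs, the log2 fold of Krt19 turned to -0.35 in these cells and to -0.32 in VP RFP+ basal cells, and the others kept their direction in the 3 strata that could be compared. In AP RFP- other cells (55 and 151) Krt7 did not differ beyond its interval, at 52.6 against 60.5, while Krt8 was 3.32-fold, Krt18 2.07-fold and Krt19 2.46-fold higher (15.6% of genes). DLP RFP- other cells (27 and 75) had Krt8 1.42-fold and both type I chains 1.64-fold higher and Krt7 at 9.36 against 34.5, from 5 castrated UMIs (10.6% of genes). In VP RFP+ basal cells (58 and 72) Krt7 rested on 4 castrated UMIs, at 11.3 against 95.8 (8.49-fold lower, 3.19 to 32), Krt8 and Krt18 were 2.05-fold and 2.32-fold higher, and Krt19 stood at 344 against 321 (9.99% of genes).

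VP RFP+ other cells (142 and 198) need the scaling beside them. Krt8 was 2.52-fold, Krt18 2.54-fold and Krt19 4.24-fold higher and Krt7 3.44-fold lower in plain CPM, but 47.8% of genes moved 2-fold and the median of all genes rose by 0.95 (log2), against -0.18 to 0.15 in the other strata. With composition scaling the log2 folds there were 0.37 for Krt8, 0.38 for Krt18, 1.12 for Krt19 and -2.74 for Krt7. In the same strata the ratio of Krt8 to Krt18 was 0.686 in castrated against 1.12 in intact AP RFP+ other cells of run 2, and the 9 castrated sums lay between 0.475 and 0.707. The 11 castrated RFP+ other cells of run 1, lobes pooled, had Krt7 at 39.0, Krt8 at 2080, Krt18 at 3860 and Krt19 at 3260. Castrated DLP RFP+ other cells (160 cells), which had no intact counterpart in run 2, had them at 40.5, 2520, 3710 and 3990. Castrated DLP RFP+ basal cells (49 cells) stood apart in Krt7, at 341 (95% counting interval 285 to 405) from 130 UMIs. These UMIs came from 13 of the cells (26.5%), and the median cell held none. Intact DLP RFP+ basal cells of run 3 stood at 58.8 plain CPM, with a Krt7 UMI in 21.4% of 318 cells. The sums thus differed in the opposite direction to the 5 strata above. Treatment and run changed together in this contrast, so it cannot tell them apart. The castrated DLP RFP+ basal cells had Krt8 at 2010, Krt18 at 2840 and Krt19 at 1250. Krt8 and Krt18 rose and fell together from cell to cell in castrated AP RFP+ other cells (r = 0.906 over 225 cells, against 0.689 over 147 intact cells of run 2, and 0.810 over 189 against 0.258 over 100 without the cells with a UMI of Ptprc, Pecam1, Col1a1 or Pax2).

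In the UGS explants all 4 keratins were present from the day of dissection in basal and other cells, and day 6 was the lowest day for each. Over all Epcam-positive cells of days 0, 1, 3 and 6 (677, 745, 1192 and 2420 cells) Krt18 stood at 1160, 1210, 814 and 582 CPM, Krt19 at 1130, 1210, 903 and 645, Krt8 at 1000, 979, 773 and 694, and Krt7 at 283, 316, 297 and 218. Day 6 over day 0 was 0.501 for Krt18 (95% counting interval 0.492 to 0.511), 0.570 for Krt19, 0.692 for Krt8 and 0.772 for Krt7. Each day is 1 pool, so these intervals cover counting error only and no test was made. Between neighbouring days none of the 36 values (4 keratins, 3 steps, all, basal and other cells) reached 2-fold, where 1.85%, 1.14% and 0.82% of genes did over all cells, 1.88%, 1.11% and 0.94% in basal cells and 3.65%, 2.71% and 1.42% in other cells. The dissociation genes Fos, Jun, Hspa1a, Hspa1b and Dnajb1 summed to 7070, 6300, 5570 and 3510 in basal cells and to 5810, 5660, 4060 and 2030 in other cells over the same days, and their part in the keratin levels was not tested.

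**Figure D5:**
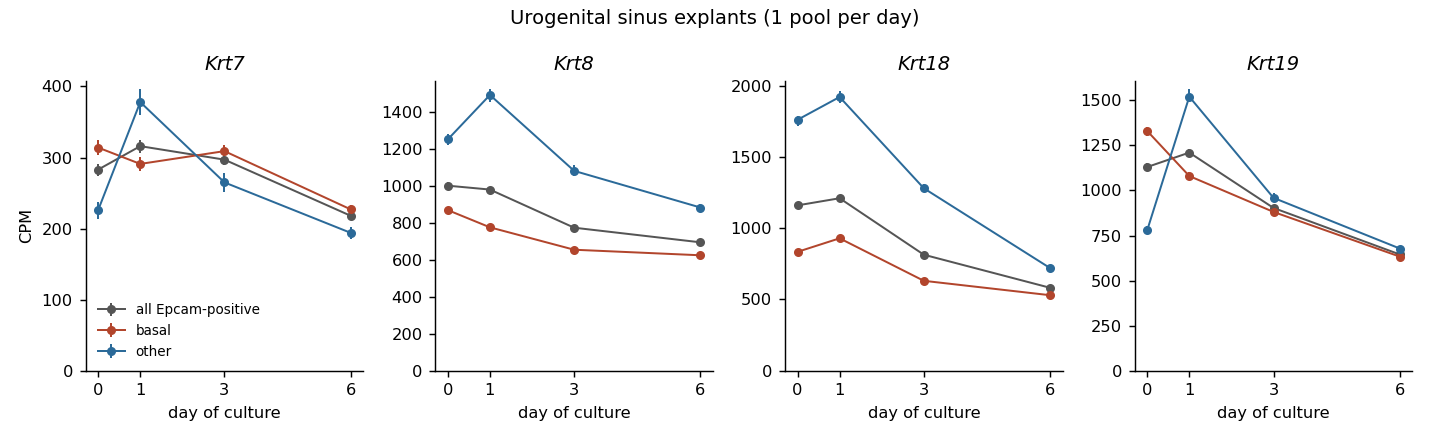
CPM of the 4 keratins by day of explant culture, over all Epcam-positive cells (grey), basal (red) and other cells (blue), 1 pool a day, with 95% counting intervals. Krt18 falls from 1760 to 720 in other cells and from 834 to 530 in basal cells between days 0 and 6.

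On day 0 of the explants Krt19 was 1.70-fold (1.65 to 1.76) and Krt7 1.39-fold higher in basal than in other cells, at 1330 against 779 and 314 against 226, which is the reverse of the intact AP RFP+ order. On day 1 both were lower in basal cells (0.710-fold for Krt19 and 0.769-fold for Krt7), and on day 3 Krt19 was at 0.918-fold and Krt7 at 1.17-fold, so that this order did not hold over the days. On day 0 Krt18 was 2.11-fold lower in basal cells, at 834 against 1760, and Krt8 1.44-fold lower, at 868 against 1250. By day 6 the classes stood at 633 and 678 for Krt19, 227 and 194 for Krt7, 530 and 720 for Krt18 and 624 and 882 for Krt8, at most 1.41-fold apart. Other cells held Krt19 at 779 on day 0 and 1520 on day 1, and Krt7 at 226 and 378 (1.68-fold). Urothelial markers in these cells went from 461 to 1060 and were 507 and 457 on days 3 and 6, and mesonephric markers went from 189 to 137, 69.6 and 69.4. Their part in the keratin values was not tested. Of 99 explant cells with Col3a1 and no Epcam UMI, 1.01% held a Krt7, 9.09% a Krt8, 8.08% a Krt18 and 12.1% a Krt19 UMI. The ratio of Krt8 to Krt18 was 1.04, 0.835, 1.04 and 1.18 in basal and 0.711, 0.776, 0.842 and 1.22 in other cells over days 0, 1, 3 and 6, beside 0.485 to 0.663 in intact and 0.475 to 0.707 in castrated adult basal cells.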

How the data were processed

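Single-cell libraries (10x 3′ chemistry) held 2612, 6034 and 3028 cells in adult runs 1, 2 and 3 and 7474 in the explant library, with 35051876, 86381807, 40087244 and 121090404 UMIs. The authors deposited UMI counts per gene and cell, made with Cell Ranger 3.1.0 on mm10 (GRCm38), and counts of lipid barcodes per cell, and the submitters' processing notes also name Seurat 3.1.5. Cells were kept here at more than 750 genes (explants 1000) and under 10% mitochondrial UMIs (explants 7.5%), and adult cells at fewer than 7500 genes. They were given to a population where 1 barcode alone passed its threshold, which left 824, 2194, 1673 and 5198 cells. No doublet caller was run, while the study used one for runs 1 and 2 because of the failed barcode. A doublet of a labelled cell with an unlabelled intact DLP RFP+ cell could therefore remain in those runs. The study's methods word the upper limit for adult cells as 7500 UMIs, below the median depth of the assigned cells, and that limit was an alternative. Cells with barcodes of 2 populations were dropped, and leaving out the 5% of cells with the most UMIs was an alternative.

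UMI counts of intact cells were summed per run, sorted population and class (10 or more cells), since cells are not replicates, and all 31 sums entered one edgeR 4.0.16 quasi-likelihood fit (TMM, filterByExpr, R 4.3.3) of 12237 genes, adjusted over all of them by Benjamini-Hochberg and called at 0.05. SE is the log2 fold change over the root of F, and 95% intervals use the degrees of freedom of the fit. The runs were independent experiments on pools of mice, so n counts runs. Sums of a run share a library, which pairs them. Their deviations from group means correlated at 0.076 to 0.55 across genes, and run as a block was an alternative. Castrated and explant sums have 1 pool per group and no test, and 2-fold or more at 50 CPM or more was counted for all genes. The statistics were tested on simulated data. Intervals on counts and shares are exact and cover counting error only.

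The 4 keratins were named in every comparison, and 3 genes of each list by the size of their fold among those called. Members and lists (49 other keratins, 16 desmosome and plakin genes, cell type markers) were chosen with earlier results of these data known. Some genes that these rules name are not reported here. In each remaining comparison named in the text no list gene was called. Reads that could map to processed copies of these genes were not examined. Alternatives were DESeq2 1.42.0, other scalings, filters, class thresholds, cell limits and leaving out each run. Scaling of the castrated and explant sums by TMM was chosen after seeing the data.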

Additional observations from a re-analysis of the deposited data

Results flagged for a closer look

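Krt18 differed in sign by reporter between AP and VP other cells, with neither difference called (-0.55, edgeR adjusted p = 0.226, and 0.25, adjusted p = 1). It stood lower in RFP+ than in RFP- cells in all 3 runs of the AP (798, 879 and 989 against 1410, 1390 and 1110 TMM-scaled CPM) and higher in all 3 runs of the VP (1740, 1710 and 2140 against 1450, 1600 and 1640). The difference between these log2 differences was -0.81 ± 0.43 and did not pass its own test (edgeR, adjusted p = 0.413, and 0.123 to 0.795 over 16 alternatives). No other value was marked for a closer look.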

How the results depend on the processing

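Under 17 alternatives the calls that held most often were Krt19 and Krt8 in AP RFP+ basal against other cells (17 and 16 of them) and Krt7 in AP RFP+ against RFP- other cells (16). Leaving out 1 run each, the count of keratins called ran from 1 to 2 for basal against other cells in the AP RFP+ and in the VP RFP+ population, from 0 to 2 for AP RFP+ against RFP- other cells and from 0 to 1 for AP against VP RFP+ other cells, and stayed at 0 for the 6 comparisons with none called. Fewer samples were fitted each time, and a lone sample is assumed to vary like the other groups. With run as a replicate block the difference of RFP differences had 1 keratin called, and Krt8 (VP RFP+ basal) and Krt7 (AP against VP RFP+ other cells) joined the calls, with no call lost. With plain CPM the VP RFP+ class comparison had 0 called and AP against VP RFP- other cells 1. The study's methods word a limit of fewer than 7500 UMIs per cell for adult cells, and here it was also applied to the explants. With this limit the VP RFP+ class comparison had 0 called and AP against VP RFP+ other cells 0. Castration had 6 of 12 and the explant steps 5 of 33 values past 2-fold. Comparisons with VP RFP- other cells could not be fitted, since too few cells were left. The explant steps had 1 past 2-fold with TMM factors and 3 with the class threshold at 2 per 10,000.

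Values that changed sign were on the log2 scale as follows. With plain CPM they were 0.35 (Krt7), 0.36 (Krt8) and 0.05 (Krt18) for VP RFP+ basal against other cells, 0.64 (Krt8), 0.72 (Krt18, adjusted p = 0.0252) and 0.74 (Krt19) for AP against VP RFP- other cells, 0.05 (Krt18) for AP against DLP and 0.04 (Krt18) for AP against VP RFP+ other cells, the median of all genes standing at 0.13 to 1.21 there. Krt18 in AP RFP+ basal against other cells was 0.08 with no Epcam UMI required, and in the VP RFP+ population 0.33 with fewer than 7500 UMIs. Krt19 in VP RFP+ against RFP- other cells was 0.03 without the 50 most abundant genes, 0.01 with no filter, 0.03 with the block, 0.49 with 20 or more cells, 0.01 and 0.02 with thresholds of 2 and 10, 0.09 with no Epcam UMI required, 0.44 without the deepest 5% of cells and -0.13 to 0.24 leaving out 1 run. In AP against VP RFP- other cells Krt7 was -0.02 with DESeq2 and -0.79 to 1.29 leaving out 1 run, and Krt19 was 0.36 with 20 or more cells, 0.15 without the deepest cells and -0.48 to 0.15 leaving out 1 run. In AP against DLP, leaving out 1 run gave -1.02 to 0.32 for Krt7 and -0.16 to 0.05 for Krt18. In AP basal cells by reporter, it gave -0.19 to 0.02 for Krt8, -0.14 to 0.08 for Krt18 and -0.35 to 0.37 for Krt7, and Krt18 was 0.08 with fewer than 7500 UMIs and Krt7 -0.21 with a threshold of 2. In AP against VP RFP+ basal cells, Krt8 was 0.03 with no filter, and leaving out 1 run gave -0.09 to 1.36 for Krt7, -0.10 to 0.04 for Krt8 and -0.22 to 0.06 for Krt18. Krt7 in the difference of RFP differences was -1.59 without the deepest cells. The cause of these changes was not tested, and none but the one with its p was called.

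Over all genes, the block called 4039 against 2515 (AP RFP+ classes), 3535 against 2200 (AP by reporter), 4249 against 2727 (AP against VP, RFP+ other) and 862 against 245 (difference of RFP differences), plain CPM 8119 against 2727, 6592 against 4080 (VP RFP+ classes) and 5749 against 1336 (AP against VP, RFP- other), and cells under 7500 UMIs 0 to 389. Of 668 tested keratin values under alternatives, 602 kept direction and side of the threshold, 21 lost and 9 gained a call. Krt7 sums of 1 to 8 UMIs limit its precision.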
